A study of Mus musculus with 11 samples.

Results

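Peaks of huntingtin (HTT) ChIP-seq that ran for 1000 bp or more on the 19 autosomes were followed over 7 peak lists of mouse striatum. Any peak at least that wide was taken from each list, as its end minus its start. Left out, in the mouse build mm9, were the positions from 3000000 to 4000000 of every chromosome, chr1:84000000-91000000, chr4:145000000-148000000, chr5:94000000-96000000 and chr8:19000000-23000000. The rule found 2457 broad peaks among the 1235367 autosomal peaks outside those stretches, and 1298473 peaks in all. Broad peaks that overlapped by at least 1 bp were merged over the lists into 1401 regions, out of 1038972 regions that all autosomal peaks gave. A further 700 wide peaks lay in the left-out stretches and 715 on the X and Y chromosomes, and these were not followed. Width chose the members, so widths are given as a description.

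The 4 Q111/+ libraries came from male mice heterozygous for a knock-in Htt allele with an expanded CAG repeat (B6.HttQ111/+), and the 3 WT libraries from their B6.Htt+/+ male littermates. All were 4 months old, and whole striatum of both hemispheres was fixed with formaldehyde, cut with micrococcal nuclease and sonication, and precipitated with 1 antibody against HTT. The study also has 4 input libraries without antibody, not analysed here. Nothing in the labels ties each library to an animal of its own, so a p-value speaks of the spread among these libraries, and that spread may be technical. The striatum mixes neurons and glia, so fewer cells with a signal and less signal per cell cannot be told apart, and peak lists hold no expression by which the tissue could be checked. The names of the lists begin with DB (Q111/+ replicates 1 and 2 and WT replicate 1) or JP (Q111/+ replicates 3 and 4 and WT replicates 2 and 3), and the labels leave the letters unexplained. The authors' fold and significance belong to each peak within its own list and only describe or rank peaks there.

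Huntingtin is a large scaffold protein that takes part in vesicle transport and is also found in the nucleus, where it associates with transcription regulators. An expanded glutamine tract in it causes Huntington's disease, and the striatum, made up mostly of projection neurons, is the region that degenerates most. A peak caller joins neighbouring positions that pass its threshold, so the width of a peak says how far raised signal ran without a gap. Genes and sequences at the regions are not given, since no mm9 genome or annotation was used here.

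The first comparison asked whether broad peaks were as frequent in the Q111/+ as in the WT striatum. The Q111/+ lists held 160, 116, 138 and 149 broad peaks in replicates 1 to 4, and the WT lists 971, 512 and 411 in replicates 1 to 3. Every WT list held more than any Q111/+ list, and WT replicate 1, whose list of 479909 autosomal peaks was the longest, held the most. The means were 141 ± 18.8 (SD, n = 4) and 631 ± 298 (SD, n = 3). On the log2 scale Q111/+ minus WT was -2.08, or 4.21-fold more in WT (p = 0.0286 by a two-sided exact permutation of the 7 libraries, which cannot go lower). The difference was -2.83 among the DB lists and -1.68 among the JP lists, and their mean within prefixes was -2.26 (exact permutation within prefixes, p = 0.0556, the smallest possible).

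With peaks of all widths counted together the WT lists were longer, so the number was also set against the length of each list. Broad peaks made up 0.151%, 0.137%, 0.141% and 0.145% of the autosomal peaks of the Q111/+ lists and 0.202%, 0.218% and 0.318% of those of the WT lists. The genotypes did not overlap, but the order within WT turned round, since the longest list had the lowest WT share. The difference of shares was -0.103 percentage points (exact permutation p = 0.0286), with -0.0583 among the DB lists and -0.126 among the JP lists (mean -0.0921, exact permutation within prefixes, p = 0.0556). It rested in part on WT replicate 3, without which it was -0.0670. It was -0.0246 (exact permutation p = 0.0571) when only peaks of 1500 bp or more counted, and -0.0653 (exact permutation p = 0.114) with the left-out stretches kept. In lists cut to the 84670 peaks of highest −log10 p, the length of the shortest list, the WT lists held 818, 500 and 409 broad peaks and the Q111/+ lists 160, 116, 138 and 149. The difference of shares was then -0.514 percentage points (exact permutation p = 0.0286). Broad peaks had a median −log10 p of 14.4 to 22.0 over the lists, and other peaks 5.43 to 8.14. The cut therefore took out few broad peaks except in WT replicate 1. In lists of equal length the share also repeats the number, so this is no separate check on list length. Depth, which the lists do not give, was not tested.

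**Figure D1:**
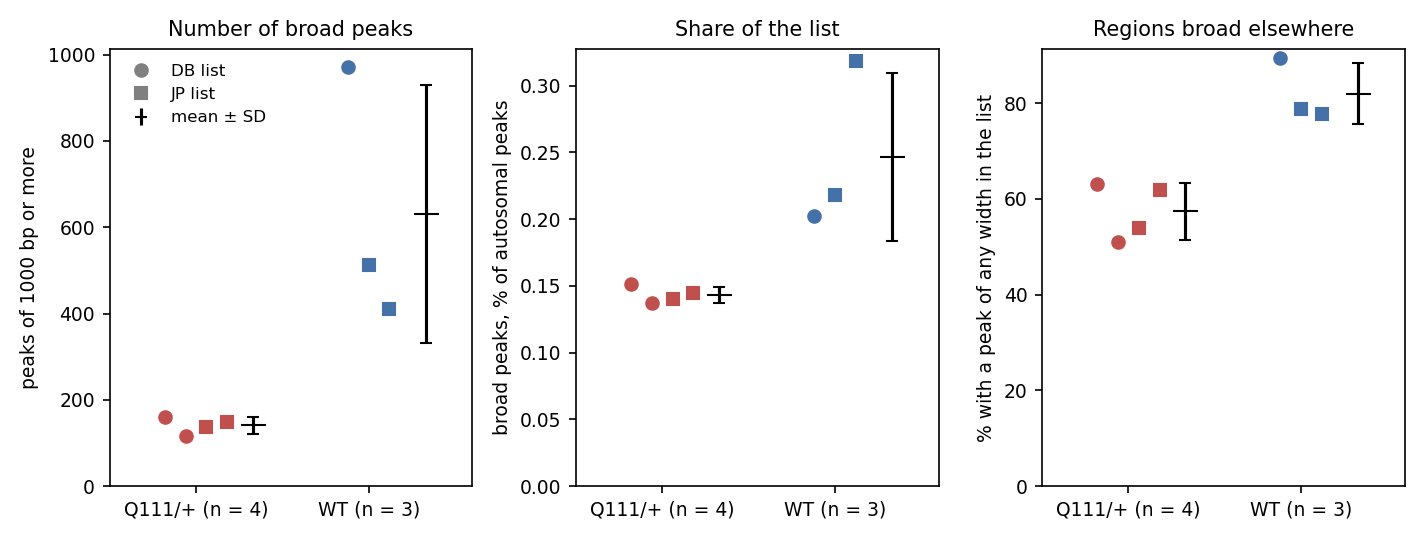
Broad peaks per list, as a number, as a percent of the list's autosomal peaks, and as the percent of regions broad in another list at which the list has a peak of any width. Each point is a library (circles DB, squares JP), with the mean and SD beside each genotype; the Q111/+ lists hold 116 to 160 broad peaks and the WT lists 411 to 971.

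Broad peaks covered a small part of the sequence called as bound. Of the bases in autosomal peaks, 1.07%, 0.996%, 0.899% and 0.988% lay in broad peaks in the Q111/+ lists and 1.13%, 1.42% and 2.33% in the WT lists. WT replicate 1 was close to Q111/+ replicate 1, and WT replicate 3 stood above all others. The difference was -0.634 percentage points (exact permutation p = 0.0286) and fell to -0.283 without WT replicate 3. It did not reach the threshold within prefixes (-0.510, exact permutation p = 0.111), at a width of 1500 bp or more (-0.229, p = 0.2, exact permutation), or with the left-out stretches kept (-0.238, p = 0.743, exact permutation).

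Broad peaks were a thin tail of the widths, and lists differed in how many more than in how wide they were. The median width of a broad peak was 1363.5, 1267.5, 1246 and 1222 bp in the Q111/+ lists and 1167, 1253.5 and 1253 bp in the WT lists, so the genotypes overlapped. Over all lists 1828 broad peaks were 1000 to 1499 bp wide, 395 were 1500 to 1999 bp, 155 were 2000 to 2999 bp, 58 were 3000 to 4999 bp and 21 were wider still. Peaks of 2000 bp or more numbered 17, 12, 16 and 14 in the Q111/+ lists and 85, 50 and 40 in the WT lists. Peaks near the limit of width were alike. The 379 peaks of 1000 to 1049 bp had a median fold of 4.72 and 7 fragments, and the 472 peaks of 950 bp to under 1000 bp had 4.69 and 7.

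**Figure D2:**
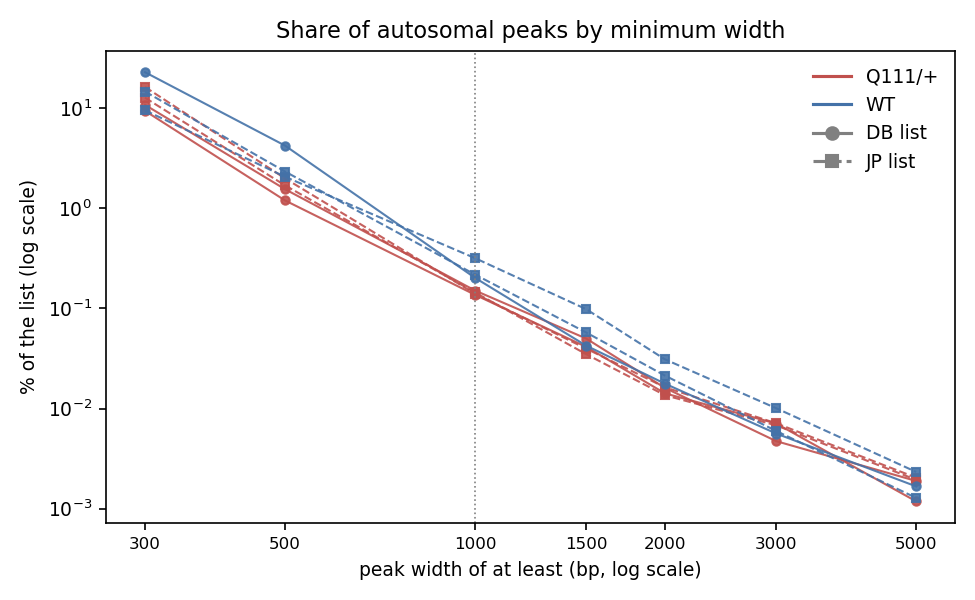
Percent of a list's autosomal peaks that reach at least the width on the horizontal axis, both axes logarithmic, 1 line per library (red Q111/+, blue WT; circles DB, squares JP); the dotted line is at 1000 bp. The shares at that width run from 0.137% to 0.151% in Q111/+ and from 0.202% to 0.318% in WT.

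The number of fragments at the highest point of a peak, its summit, was recovered from the authors' fold and p. In the peak caller these derive from the pileup of fragments and from the local background, the fragments expected per position around the peak. Among broad peaks of up to 60 in −log10 p the median peak held 9 fragments in each Q111/+ list and 8, 8 and 10 in the WT lists, against 4 or 5 for the other autosomal peaks of a list. So even a broad peak rested on few fragments. The authors' fold had a median of 4.61, 4.16, 3.85 and 4.00 for the broad peaks of the Q111/+ lists and of 5.48, 5.14 and 5.14 for those of the WT lists, and of 2.78 to 3.38 for the other peaks of the 7 lists. Fold falls as the background rises, and the lists differed there. The lowest background of a list was 1.344, 1.298, 1.653 and 1.579 fragments per position in Q111/+ and 1.144, 1.211 and 1.442 in WT. Peaks of 3 fragments were called in WT replicates 1 and 2 alone (15.4% and 19.5% of their peaks). Among broad peaks of 8 or more fragments, with those over 60 in −log10 p counted in, the numbers were 127, 84, 107 and 116 in Q111/+ and 531, 322 and 369 in WT, without overlap, and the log2 difference was -1.89 (exact permutation p = 0.0286).

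Broad peaks also differed among lists in the local background they stood on. Fragments and background were recovered for 140, 104, 117 and 133 broad peaks in the Q111/+ lists and 926, 489 and 387 in the WT lists, nearly all others being over 60 in −log10 p. Of these a share of 21.4%, 14.4%, 41.0% and 26.3% in Q111/+ had a background at the lowest value of the list, against 57.8%, 54.0% and 47.0% in WT. Every WT value was above every Q111/+ value. The means were 25.8 ± 11.3% (SD, n = 4) and 52.9 ± 5.45% (SD, n = 3), and the difference of -27.1 percentage points did not pass the threshold (two-sided exact permutation p = 0.0571). It passed with the left-out stretches kept, at -29.7 (exact permutation p = 0.0286). Other autosomal peaks of the same lists were at the lowest background in 57.0%, 47.7%, 77.3% and 63.7% in Q111/+ and in 61.2%, 74.1% and 62.0% in WT, so there the genotypes overlapped. This measure was added after the data had been seen.

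A subset of broad peaks had p-values far beyond the rest. In 59 of the 1401 regions a broad peak had a −log10 p over 60, with 19, 11, 19 and 14 such peaks in the Q111/+ lists and 45, 22 and 23 in the WT lists. As a share of broad peaks these were 11.9%, 9.48%, 13.8% and 9.40% in Q111/+ and 4.63%, 4.30% and 5.60% in WT. By share every Q111/+ list was thus above every WT list, the reverse of the numbers. The background of these peaks was a median of 20.8, 15.1, 25.1 and 34.6 times the lowest value of the list in Q111/+ and 4.51, 11.1 and 13.2 times in WT. These backgrounds come from an approximate inversion of fold and p. Whether the raised background came from input or from the HTT library itself is not known, since the use of input as control is not stated. Without an input track the copy number of the sequence and binding cannot be told apart.

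Broad peaks recurred from list to list more often than narrow peaks with the same number of fragments. Recurrence was counted as the share of summits that fell inside a peak of any width in at least 1 other list. Among peaks of 8 to 9 fragments, 89.2% to 97.6% of broad peaks recurred (median over lists 96.1%, 668 peaks). Of peaks under 300 bp with as many fragments, 16.5% to 34.9% did so (median 27.8%, 22039 peaks). Intermediate widths lay between, with 21.9% to 57.1% from 300 bp to under 500 bp and 47.2% to 90.6% from 500 bp to under 1000 bp, and the lowest value of each of these narrower classes came from WT replicate 1. Within every list broad peaks of this fragment class therefore lay above narrow ones. At 6 to 7 fragments the broad peaks ranged from 65.5% to 96.6% and the narrow ones from 13.6% to 25.8%. From 13 fragments on the classes approached each other, with 97.5% to 100% for broad peaks and 71.1% to 94.1% for peaks under 300 bp. The lists cover 0.719% to 4.94% of the span, and a wide peak in another list is also an easier target. Broad peaks of up to 5 fragments were numerous enough to score in WT replicates 1 and 2 alone (164 peaks), and 31.5% and 75.7% of them recurred. The other lists held few or none and were not scored.

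**Figure D3:**
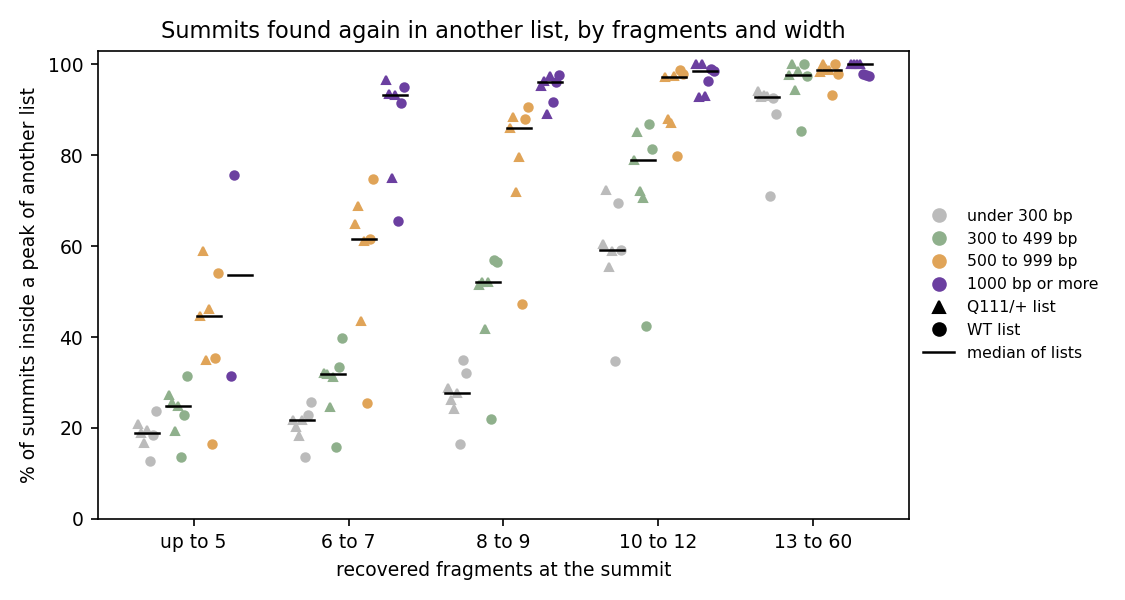
Percent of peak summits that lie inside a peak of another list, by the recovered fragments at the summit and by peak width (colour); triangles are Q111/+ and circles WT libraries, and bars are medians over libraries. At 8 to 9 fragments the broad peaks lie at 89.2% to 97.6% and those under 300 bp at 16.5% to 34.9%.

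Recurrence of the place was more common than recurrence of the width. Of the 1401 regions, 899 (64.2%) were broad in 1 list, 267 in 2, 129 in 3, 46 in 4, 26 in 5, 20 in 6 and 14 (0.999%) in all 7. Of the 899, 561 came from WT replicate 1. In that list 40.9% of its own broad regions were broad in another list. In the Q111/+ lists 82.4%, 80.2%, 76.2% and 79.7% were, and in WT replicates 2 and 3 68.1% and 80.7%. With peaks of any width counted, 329 regions (23.5%) were called in all 7 lists and 122 (8.71%) in 1 list alone. Over all 1038972 autosomal regions 0.0621% were called in all 7 lists and 85.3% in 1 list. A merged region is called by more lists the wider it is, so these shares are set side by side without a test. In 106 regions broad in at least 4 lists, the summits of different lists lay a median of 535.5 bp apart, or 20.4% of the span, and in 15 regions they lay within 200 bp.

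The lists were then asked how often each of them called a region that was broad in another list. The Q111/+ lists had a peak of any width at 63.1%, 50.9%, 53.9% and 61.8% of such regions, and the WT lists at 89.4%, 78.8% and 77.8%. All WT lists were above all Q111/+ lists, with means of 57.4 ± 5.94% (SD, n = 4) and 82.0 ± 6.45% (SD, n = 3) and a difference of -24.6 percentage points. These values are a description, and no p is given for them. Of the 1401 regions 1051 were broad in WT lists alone, and each list was scored on regions of its own, 840 for WT replicate 1 and 1370 to 1380 for the Q111/+ lists, so the choice of regions favours WT.

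Regions chosen in lists of 1 prefix were read out in the lists of the other. Of 199 regions broad in both JP WT lists, 95.5% were called in WT replicate 1 and 88.4% and 80.9% in Q111/+ replicates 1 and 2. They were broad in 74.4% of cases in WT replicate 1, but in 32.2% and 23.1% in the Q111/+ lists, and the median part of the region covered was 84.9%, 43.4% and 33.3%. Of 49 regions broad in both JP Q111/+ lists, 93.9% and 95.9% were called in Q111/+ replicates 1 and 2 and 77.6% in WT replicate 1. They were broad in 69.4% and 57.1% of cases in the Q111/+ lists and in 53.1% in WT replicate 1. Among the DB lists, where WT is 1 library, regions chosen in a genotype were thus called more often by that genotype than by the other. The 49 regions include some within chr7:71610800-71639595, where peaks of WT replicate 1 covered 0.681%. In the other direction, 45 regions broad in both DB Q111/+ lists were called in 91.1% and 97.8% of cases in Q111/+ replicates 3 and 4 and in 97.8% and 93.3% in WT replicates 2 and 3. Of these regions 62.2% and 55.6% were broad in Q111/+ replicates 3 and 4 and 75.6% and 73.3% in WT replicates 2 and 3. At these 45 regions the WT values among the JP lists were thus not below the Q111/+ values in share broad, and the shares called overlapped. Of 949 regions broad in WT replicate 1, 49.4% and 56.9% were called in Q111/+ replicates 3 and 4. In WT replicates 2 and 3 75.9% and 76.1% were called. They were broad in 5.80% and 7.48% of cases in the Q111/+ lists and in 27.0% and 26.0% in the WT lists. These shares describe lists that differ in length and were not tested.

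Pairs of lists of the same genotype shared more broad sequence by 1 measure and less by another. The base-pair Jaccard index, shared bases over bases in either list, averaged 20.2% (16.3% to 23.9%) for Q111/+ pairs, 24.8% (22.2% to 28.7%) for WT pairs and 11.4% (5.36% to 17.2%) for mixed pairs. Pairs of the same genotype exceeded mixed pairs by 10.4 percentage points (one-sided exact permutation p = 0.0286). Lists of unequal length lower this index, and WT and Q111/+ lists are unequal. As a share of the shorter list of a pair, a measure added after the data had been seen, the overlap was 36.8% (32.3% to 40.1%) for Q111/+ pairs, 53.7% (49.4% to 60.8%) for WT pairs and 49.1% (41.5% to 56.7%) for mixed pairs. Same minus mixed was then -6.68 percentage points (one-sided exact permutation p = 1), so the direction turned with the measure.

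Most regions were broad in WT lists alone. Broad peaks came from WT lists only in 1051 regions (75.02%), from Q111/+ lists only in 125 (8.92%) and from both in 225 (16.1%). Yet 839 of the 1051 had a peak of some width in at least 1 Q111/+ list, and 119 of the 125 had one in at least 1 WT list. WT replicate 1 was the only list with a broad peak in 561 of the 1051. The WT lists also held most peaks of any width, 479909, 234549 and 129060 of the 1235367 autosomal peaks. The share of all autosomal regions called in WT lists alone was not counted. Of the 67 regions broad in all 3 WT and no Q111/+ list, all 67 had a peak in at least 1 Q111/+ list and 22 in all 4. Peaks covered 30.0%, 17.9%, 21.6% and 26.0% of these regions in the Q111/+ lists and 88.8%, 79.99% and 78.2% in the WT lists. Width in these same lists chose the regions, which favours WT here, so the covered parts are a description. No region was broad in all 4 Q111/+ and no WT list, and 19 were broad in at least 2 Q111/+ and no WT list. At these 19, where the choice favours Q111/+, the covered part was 52.8% to 60.6% in the Q111/+ lists and 31.5% to 36.2% in the WT lists.

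**Figure D4:**
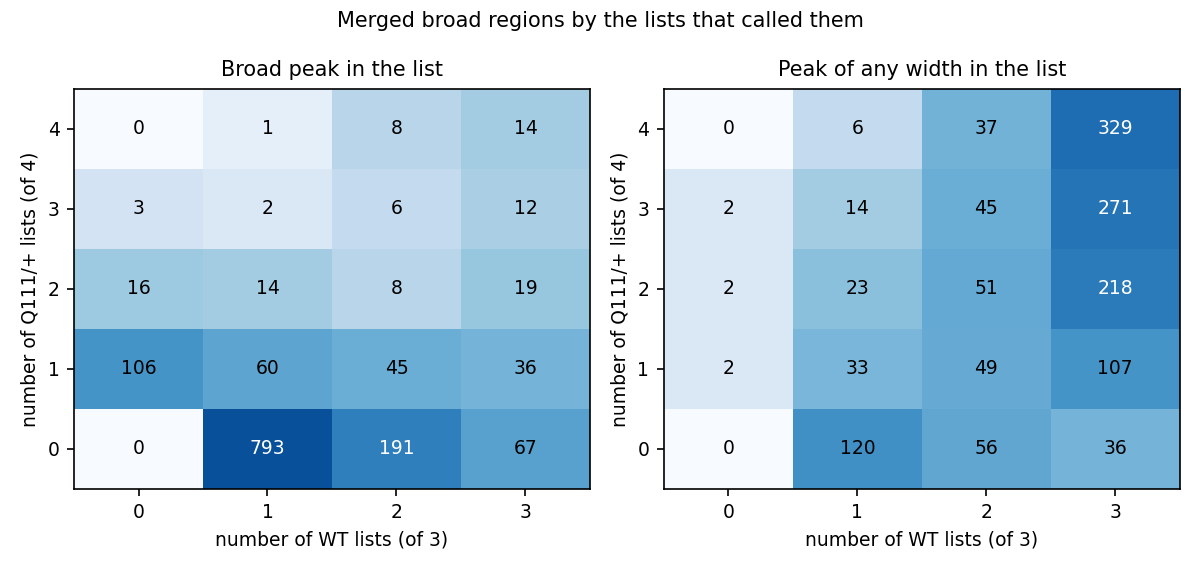
Number of merged broad regions by how many WT lists (horizontal) and Q111/+ lists (vertical) hold a broad peak there (left) or a peak of any width (right). Counted by broad peaks, 793 regions belong to 1 WT list alone; counted by any peak, 329 are called in all 7 lists.

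With peaks of any width counted, 36 of the 1401 regions (2.57%) had a peak in every WT list and in 0 of the 4 Q111/+ lists, and 0 had one in every Q111/+ list and in 0 of the 3 WT lists. Over all autosomal regions these shares were 0.308% (3205 regions) and 0.00106% (11 regions). The count of 36 moved in both directions when single libraries were left out. It was 74, 50, 55 and 71 without Q111/+ replicates 1 to 4, and 19, 55 and 64 without WT replicates 1, 2 and 3. With a list left out the rule asks less of a region, so a rise is largely built in. The count was 68 among peaks of 8 or more fragments. Neither count carries a test, since both are counts over lists chosen by the rule.

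The 36 WT regions with no Q111/+ peak had a median span of 1166.5 bp, against 1207 bp for all 1401. The 5 WT regions named by rule were each broad in 2 of the 3 WT lists, and the top peak of all 5 lay on the lowest background of its list. At chr18:56382503-56383786 the widest peaks were 1109, 946 and 1284 bp in WT replicates 1 to 3, each with 9 fragments at the summit. At chr4:64115716-64116798 they were 1002, 1008 and 901 bp with 8, 7 and 13 fragments, and at chr6:42111542-42112783 they were 1195, 1102 and 397 bp with 8, 10 and 6 fragments. The others were chr7:11056680-11057868, with 1076, 1025 and 270 bp, and chr15:7751233-7752905, with 881, 1165 and 1673 bp. Only 6 regions lacked any WT peak, and the 5 of these named by rule were each broad in 1 Q111/+ list. At chr10:110654817-110655850 the widest peak was 1034 bp in Q111/+ replicate 2, 828 bp in replicate 1 and 249 bp in replicate 4. At chr14:43942505-43943566 it was 1062 bp in Q111/+ replicate 3 and 409 bp in replicate 2, and at chr19:5799728-5800749 it was 1022 bp in replicate 1 and 276 bp in replicate 2. The remaining regions of the 5, chr13:61961710-61962724 and chr1:100660399-100661526, had peaks of 1015 and 1128 bp in Q111/+ replicate 3 alone.

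Of the 3 regions broad in 3 Q111/+ and no WT list, named after their values were seen, 1 shows how width can part lists that call the same place. At chr2:98506415-98507473 the widest peak was 1056, 743, 1059 and 1057 bp in the Q111/+ lists and 750, 751 and 742 bp in the WT lists. Peaks nevertheless covered 99.7%, 86.8%, 100% and 99.8% of it in Q111/+ and 70.8%, 87.2% and 83.6% in WT. Q111/+ replicate 2 and WT replicates 2 and 3 had it in 2 pieces. Its background was 2991 to 3512 times the lowest of each list by the approximate inversion. The other regions had a background near the lowest. At chr5:21999839-22003077 the widest peaks were 1252, 2251, 789 and 1352 bp in Q111/+ and 418 and 676 bp in WT replicates 2 and 3, with no peak in WT replicate 1. At chr16:20266090-20267618 they were 1138, 301, 1151 and 1142 bp in Q111/+ and 387, 875 and 860 bp in WT.

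The 14 regions broad in all 7 lists fell into regions of fixed and of changing width. In 4 of them the widest peak of any list was at most 1.1 times the narrowest. At chr13:74665920-74668429 the widths were 2496, 2487, 2484 and 2489 bp in the Q111/+ lists and 2505, 2501 and 2504 bp in the WT lists. Over the 14 regions that ratio ran up to 6.43. The other regions with fixed edges were chr17:13743555-13746051 (2437 to 2456 bp in Q111/+ and 2475 to 2497 bp in WT), chr6:29697725-29699134 (1302 to 1386 bp and 1400 to 1407 bp) and chr10:7229422-7235274 (5779 to 5832 bp and 5719 to 5852 bp). All 4 lay on a raised background. At chr17:13743555-13746051 it was 58.0, 47.9, 49.7 and 50.8 times the lowest of the list in Q111/+ and 46.6, 49.98 and 49.8 times in WT. At chr10:7229422-7235274 it was 14.5, 15.2, 13.8 and 14.2 times in Q111/+ and 14.1, 20.6 and 15.9 times in WT. At chr13:74665920-74668429 it was 20.8 to 26.1 times in Q111/+ and 24.5 to 27.2 times in WT. At chr6:29697725-29699134 it was 25.7, 46.2, 27.2 and 44.4 times in Q111/+ and 48.3, 46.7 and 48.9 times in WT. Every WT value was above every Q111/+ value at this last place, and the genotypes overlapped at the other 3. The widths, close as they were, were larger in every WT list than in every Q111/+ list at 3 of the 4, and overlapped at chr10:7229422-7235274.

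Signal at the summit differed among the 4 regions with fixed edges. It was set against each list's lowest background, a scale made here whose relation to depth was not tested. At chr17:13743555-13746051 the summit stood 306, 244, 270 and 287 times above it in the Q111/+ lists and 452, 553 and 552 times in the WT lists. At chr6:29697725-29699134 the values were 171, 137, 166 and 191 in Q111/+ and 275, 329 and 328 in WT. All WT values were higher at both places. At chr10:7229422-7235274 the values were 72.1, 69.1, 77.4 and 72.2 in Q111/+ and 62.0, 98.2 and 95.005 in WT, so WT replicate 1 was lowest and the genotypes overlapped. Among the 14 regions the authors' fold was higher in every WT list than in every Q111/+ list in 5 and the reverse in 0. Of 645 autosomal regions called in all 7 lists, 27.1% had every WT fold above every Q111/+ fold and 0.31% the reverse. Of the 329 broad regions called in all 7 lists these were 97 (29.5%) and 1 (0.304%), close to the shares over the 645. The 645 were merged from all peaks and hold the broad regions too, so these shares are not independent.

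Of the 10 regions of changing width, the widest peak was longer in every WT list than in every Q111/+ list in 4 and shorter in 1, and the genotypes overlapped in 5. Over all 14 regions it was longer in WT in 7. Over the 645 regions called in all 7 lists the shares were 20.8% and 0.93%, and over the 329 broad ones 28.9% and 0.304%, where width chose the members. At chr1:5099469-5104697 the widest peak was 1899, 1356, 1158 and 1592 bp in the Q111/+ lists, which held 2, 4, 4 and 4 pieces, and 5229, 4716 and 4195 bp in the WT lists, which held 1, 1 and 2. At chr13:6604884-6612101 WT replicate 1 had 1 peak of 7218 bp where the other lists had 4 to 6 pieces, the widest of 1122 to 1954 bp in Q111/+ and of 1980 and 2218 bp in WT. At chr10:84876167-84882305 the widths were 2895, 1256, 1250 and 1848 bp in Q111/+ and 6070, 3104 and 2958 bp in WT. The same place was thus called in all lists, as 1 stretch in some and in pieces in others. The opposite was seen at chr1:192123966-192128062, named after its values were seen, with 3921, 4078, 3412 and 3958 bp in Q111/+ and 1130, 1492 and 2497 bp in WT. Widths overlapped between genotypes at chr9:117996983-118002367 (1005 to 2404 bp in Q111/+ and 1431 to 3307 bp in WT) and at chr14:4025291-4026944 (1300 to 1654 bp and 1372 to 1570 bp). A long WT peak with little in Q111/+ replicate 2 lay at chr7:12595737-12602960, where the widest peak was 1829, 301, 1604 and 1843 bp in Q111/+ and 6241, 2113 and 2059 bp in WT.

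**Figure D5:**
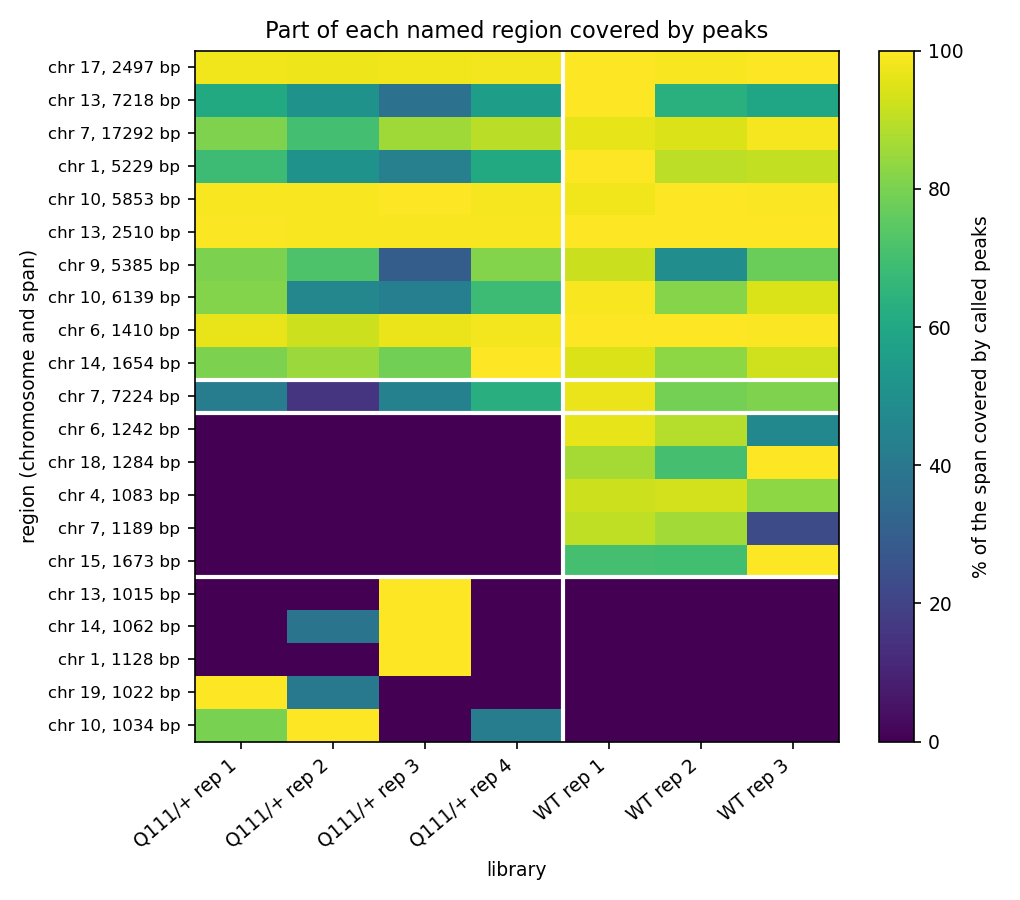
Percent of each region named by rule that called peaks cover in each library (colour scale from 0 to 100%), by chromosome and span; white lines part the 10 regions broad in most lists, the 1 further among the widest, the 5 of WT lists without a Q111/+ peak and the 5 of Q111/+ lists without a WT peak. Regions on chromosomes 17, 10 (5853 bp) and 13 (2510 bp) are nearly filled in all 7 lists.

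The broad regions lay in 937 windows of 1 Mb, with a median gap of 428 kb, and together spanned 2079 kb. Within 10 kb of another region lay 139 (9.92%), and 13 windows with 5 or more regions held 93 (6.64%). Chromosome 7 held the most, 131 regions or 0.876 per Mb, and chromosome 11 held 50, or 0.42 per Mb. Chromosome 7 took 13.1%, 13.8%, 15.9% and 16.1% of the broad peaks of the Q111/+ lists and 7.31%, 11.5% and 8.03% of those of the WT lists. Without the window from 71 to 72 Mb these were 7.95%, 5.66%, 9.38% and 8.76% and 7.02%, 9.76% and 6.67%, and the genotypes overlapped. That window held 9, 10, 10 and 12 broad peaks in the Q111/+ lists and 3, 10 and 6 in the WT lists.

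The widest region of all, chr7:71218358-71235649, lay in that window and spanned 17292 bp. Its widest peak was 7493, 4164, 8934 and 13009 bp in Q111/+ and 12918, 10125 and 13444 bp in WT, and peaks covered 80.5%, 70.3%, 85.7% and 89.6% of it in Q111/+ and 96.1%, 94.9% and 98.6% in WT. Further along, 5 broad regions stood side by side within chr7:71610800-71639595, a stretch of 28796 bp chosen after its values were seen. Peaks covered 49.9%, 67.7%, 62.9% and 63.0% of it in the Q111/+ lists and 56.0% and 43.9% in WT replicates 2 and 3. WT replicate 1, with the longest list of all, had 1 peak there, of 196 bp and 5 fragments, which covered 0.681%. The other lists held 17 to 21 peaks there, with a median of 8.5 to 12 fragments. The median background at the peaks was 2.08, 2.06, 2.39 and 2.15 times the lowest of the list in Q111/+ and 2.28 and 2.25 times in WT replicates 2 and 3, and the 1 peak of WT replicate 1 had 2.27 times. The stretch thus parted 1 WT library from the other 6 and not the genotypes, and what differs in that library there was not tested.

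WT lists held 1894 of the 2457 broad peaks (77.1%), and in the 13 windows with 5 or more regions their share ran from 31.7% to 100%, above the overall share in 6 and below it in 7. Of the 1235367 autosomal peaks of any width the WT lists likewise held most, 479909, 234549 and 129060. The window of chromosome 7 from 46 to 47 Mb held 15 regions between 46393907 and 46628918, with 0, 0, 2 and 2 broad peaks in the Q111/+ lists and 2, 6 and 4 in the WT lists. Of these 15 regions 6 were called in all 7 lists. On chromosome 17, 12 regions lay between 13371830 and 13746051, with 2, 1, 1 and 2 broad peaks in Q111/+ and 8, 4 and 1 in WT, and the region of fixed edges named above was the last of them. On chromosome 3, 7 regions lay between 93008849 and 93249386, with 0, 0, 0 and 1 broad peaks in Q111/+ and 6, 5 and 2 in WT, and 92.9% of these peaks had the lowest background of their list.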

How the data were processed

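One peak list per HTT library was used, in mm9. The submitters' processing notes name Bowtie2 2.2.5, MACS2 2.1 and mm9, without role or order, and the use of input as control is not stated there. The authors' lists hold, in narrowPeak column order, the fold (a ratio to local background), p-value and q-value as −log10, the deposited score, and start, end and summit positions. Coordinates are printed 1-based. Depth is unknown, since no read totals come with the lists.

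Fragments at a summit were recovered per list from fold = (scaled pileup + 1)/(background + 1) and the Poisson tail, with 1 scale per list (4.197 to 6.157), searched to 60 fragments and to 60 in −log10 p, within 0.02. At least 99.97% of peaks matched. Among scales over 5% away the best matched 40.5% to 61.5% of a sample of peaks, except in WT replicate 1, where it matched 100% because a whole fraction of a scale fits every multiple, so the larger was used. Beyond 60 in −log10 p the inversion was continuous. It was within 1 fragment for 100% of 2296 broad peaks with recovered fragments. On simulated data the fragments were right in 100% of peaks.

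Libraries, 1 value each, were compared by exact permutation over 35 splits, and over 18 within list name prefixes. Regions named were the 10 broad in most lists, the 5 with the widest peak, and the 5 each of WT without a Q111/+ peak and of Q111/+ without a WT peak, ranked by lists and then by fold percentile. Members, rules and lists were chosen with earlier results of these data known. Planned checks at genes and markers were not run, because no mm9 annotation was used here. Alternatives were other widths, thresholds, lengths, overlaps, windows and libraries left out, a replicate block and a prefix block. Tools were scipy 1.17.1, pandas 2.3.3, numpy 2.4.6, matplotlib 3.10.9 and Python 3.11.15.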

Additional observations from a re-analysis of the deposited data

Results flagged for a closer look

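Of 17 measures compared among the 4 Q111/+ lists, 1 had a list set well apart. By chance about 1 group in 20 would show this. In Q111/+ replicate 3, 98.5% of its own broad regions had a peak in another list, against 100% in the other Q111/+ lists. Those lists were tied at the highest possible value. Any lower value would thus have been flagged, and the rate of 1 in 20 does not apply here.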

How the results depend on the processing

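Q111/+ minus WT kept its sign in all 5 quantities compared under every alternative run, and same minus mixed for the Jaccard index kept its sign in every setting listed for it. Leaving out each library gave -2.33 to -1.71 for log2 number, -0.125 to -0.0670 for share and -0.882 to -0.283 for covered share. The Jaccard index ran from 7.94 to 11.4. For these measures p can then reach only 0.0667 or 0.1 by exact permutation. Recurrence ran from -26.9 to -19.5, a description without a test, since its regions come mostly from WT lists. With the replicate number as a block log2 number, share and covered share were -2.11, -0.103 and -0.634, and the Jaccard index 11.4. Each had p = 0.25 by exact permutation, the smallest possible. Recurrence was -26.4, without a test. Replicate numbers did not pair the lists (same-number correlations of chromosome shares 0.555, -0.155 and 0.0991). With the list prefix as a block log2 number, share and covered share were -2.26, -0.0921 and -0.510, and the Jaccard index 10.4. By exact permutation p was 0.0556, and 0.111 for covered share. Recurrence was -26.4 there, again without a test. At 1500 bp or more the share was -0.0246, the covered share -0.229 and recurrence -12.7. With the left-out stretches kept the share was -0.0653, the covered share -0.238 and the share at the lowest background -29.7 (exact permutation p = 0.0286, against -27.1 and p = 0.0571). At −log10 q of 2 or more and −log10 p of 5 or more the covered share was -0.821 (exact permutation p = 0.0571) and -0.838 (p = 0.0857, exact permutation). The 14 regions broad in all lists became 33 at 750 bp, 5 at 1500 bp and 29 with the left-out stretches kept, and 15 to 20 with a library left out. The 36 WT regions without a Q111/+ peak became 181 at 750 bp, 2 at 1500 bp and 68 among peaks of 8 or more fragments, and 19 to 74 with a library left out. The 0 Q111/+ regions without a WT peak became 1 at 750 bp, 1 at −log10 p of 5 or more, 3 in lists of equal length by either ranking, and 0 to 2 with a library left out. The cause of these shifts was not tested, apart from fewer libraries or peaks entering.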
